A study of Xenopus tropicalis with 2 samples.

Results

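Thyroid hormone receptor (TR) chromatin immunoprecipitation (ChIP) peaks lying just downstream of a transcription start site (TSS) were examined in tadpole brain. A peak was counted here when its summit lay more than 200 bp and up to 1000 bp downstream of the nearest TSS and every TSS within 1000 bp of the summit was on one strand. There were 806 such downstream flank peaks among 6302 peaks in all (12.8%, 95% exact binomial interval 12 to 13.6%). They belonged, by nearest TSS, to 783 of the 5285 genes that held any peak. A gene held a peak when the deposited list paired them, from 10 kb upstream of the gene to its end. That is wider than the nearest-TSS rule, and 1253 of 6302 peaks (19.9%) were paired with more than 1 gene. Shares over genes with a peak, and counts of further peaks, rest on this pairing. The 5496 other peaks included 1736 core promoter peaks within 200 bp of a single-strand TSS, 411 upstream flank peaks at over 200 to 1000 bp, and 472 intragenic peaks 1 to 10 kb past a TSS.

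The data came from 1 library of TR-precipitated chromatin and 1 library of input chromatin that no antibody had touched. Animals were Xenopus tropicalis tadpoles of wild-type genotype at NF62 (stage 62 of the Nieuwkoop-Faber table), the climax of metamorphosis, reared at 25 °C with no hormone or drug treatment named in the labels. The tissue was the dissected middle part of the brain with the preoptic area, hypothalamus and thalamus. The antiserum was polyclonal and raised to Xenopus TRs, so the receptor forms alpha and beta were not told apart. With 1 library a group there was no test between groups. The intervals given cover counting error or, for ratios of medians, the spread among peaks of 1 library.

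TRs are nuclear receptors that sit on response elements in DNA as partners of retinoid X receptors (RXRs). Without hormone they recruit corepressors, and with thyroid hormone (TH) they recruit coactivators. The stretch just downstream of a TSS usually holds the first exon and the start of the first intron, where promoter-proximal nucleosomes are found. The deposited gene models gave 1 start and 1 end for each gene, so exons, introns, UTRs and further start sites of the same gene were not distinguished.

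Downstream flank peaks were most frequent close to the TSS and thinned out with distance. The median summit lay 416 bp from the TSS (quartiles 280 to 642 bp). Of the 806 peaks, 241 lay at over 200 to 300 bp, 145 at over 300 to 400 bp and 94 at over 400 to 500 bp. The last 100 bp, up to 1000 bp, held 44. The genes were split evenly between strands, with 396 peaks at genes on the plus strand and 410 at genes on the minus strand.

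More summits lay on the downstream side than on the upstream side at every distance. The 806 downstream flank peaks stood against 411 upstream flank peaks, a ratio of 1.96, and made up 66.2% (63.5 to 68.9%) of the flank peaks. At over 200 to 300 bp there were 241 downstream peaks against 158 upstream, a ratio of 1.53. At over 800 to 900 bp there were 52 downstream peaks against 13 upstream. Within the core promoter the lean was smaller, with 979 of 1736 summits (56.4%, 54.0 to 58.7%) at or downstream of the TSS. The one-strand condition left out 32 downstream and 39 upstream peaks by their nearest TSS. With them, a setting chosen after the data were seen, the counts were 838 downstream and 450 upstream, a ratio of 1.86.

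**Figure D1:**
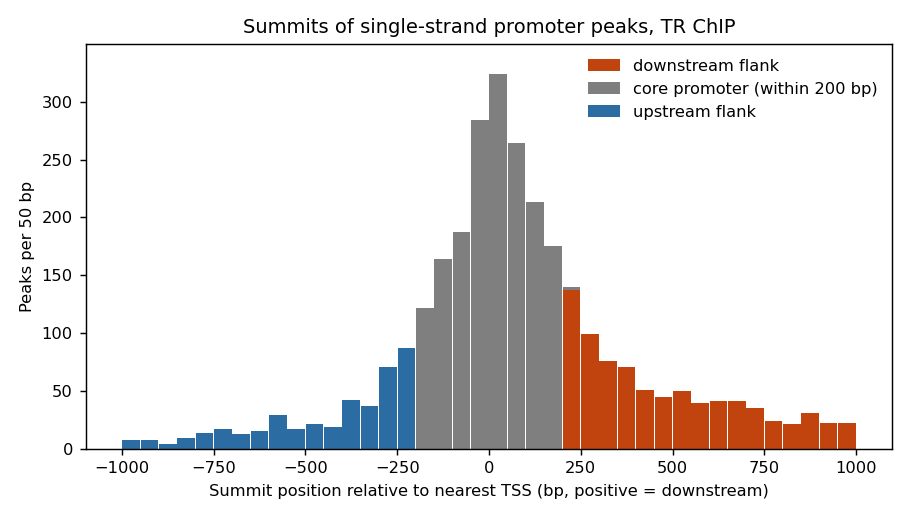
Number of TR ChIP peaks per 50 bp (vertical axis) by summit position relative to the nearest TSS in bp (horizontal axis, positive downstream), with downstream flank peaks in red, core promoter peaks in grey and upstream flank peaks in blue. The 806 downstream flank summits form a longer tail than the 411 upstream flank summits.

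Most of these peaks did not reach the TSS. Every summit was selected to lie more than 200 bp away, so this holds in part by construction. The whole peak interval lay beyond the TSS in 707 of 806 cases (87.7%, 85.3 to 89.9%), with a median gap of 274 bp between the TSS and the nearer peak edge. The interval covered the TSS in 99 (12.3%, 10.1 to 14.7%), against 96 of 411 upstream flank peaks (23.4%, 19.4 to 27.8%). Of the 99, 63 had their summit at over 200 to 300 bp, and none lay beyond 800 bp. The comparison with upstream flank peaks was not matched for distance. At over 200 to 300 bp lay 158 of the 411 upstream flank summits, against 241 of the 806 downstream ones. The downstream flank peaks were close to symmetric, with a median of 170 bp from the summit to the TSS-side edge and 174 bp to the far edge. Their median width was 347 bp (range 211 to 1678 bp), against 364 bp for core promoter peaks and 370 bp for upstream flank peaks.

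**Figure D2:**
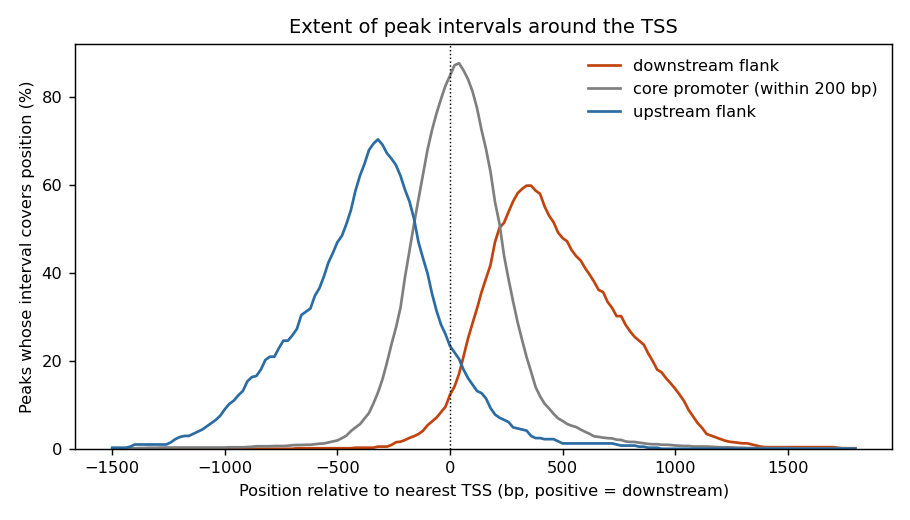
Share of peaks in percent whose interval covers each position (vertical axis) by position relative to the nearest TSS in bp (horizontal axis, dotted line at the TSS), with downstream flank peaks in red, core promoter peaks in grey and upstream flank peaks in blue. At the TSS itself the share was 12.3% for downstream flank peaks and 23.4% for upstream flank peaks.

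The signal in the downstream flank was lower than in the core promoter. Fold enrichment here is the deposited linear fold of ChIP over background at the summit, as the authors' peak caller gave it. ChIP and background fragments were solved from the fold and the p-value. The median downstream flank peak had 24 ChIP fragments over a background of 5.53 and a fold of 3.96 (quartiles 3.42 to 4.79). Core promoter peaks had medians of 29 fragments, 6.14 and 4.22, and upstream flank peaks had 26, 6.14 and 3.94. Intragenic peaks at 1 to 10 kb had 20 fragments over 4.30, and a fold of 3.96. So the median fold of downstream flank peaks was 0.940 times that of core promoter peaks and 1.01 times that of upstream flank peaks.

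The difference was larger in the upper part of the range. The upper quartile of fold was 4.79 in the downstream flank and 5.37 in the core promoter, while the lower quartiles were 3.42 and 3.48. A fold of at least 5 was reached by 173 of 806 downstream flank peaks (21.5%, 18.7 to 24.5%), against 24.5% of all 6302 peaks. The share was 31.5% (29.3 to 33.7%) of core promoter peaks, 25.1% (20.9 to 29.5%) of upstream flank peaks and 14.8% (11.7 to 18.4%) of intragenic peaks at 1 to 10 kb. The intervals of the downstream flank and the core promoter did not overlap, nor did those of the downstream flank and the intragenic peaks. Peaks of 1 library are not replicates, so this order was not tested.

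Because background also differed between positions, folds were compared within 3 ranges of background, set so that each would hold about the same number of all peaks. In the lowest range the median fold was 4.48 for 211 downstream flank peaks, against 4.95 for core promoter, 4.88 for upstream flank and 4.24 for intragenic peaks. In the middle range it was 3.95 for 325 downstream flank peaks, against 4.48, 4.06 and 3.64 for the same classes. In the highest range it was 3.48 for 270 downstream flank peaks, against 3.74, 3.56 and 3.34. In each range the median of the downstream flank thus stood below those of both other promoter classes and above that of the intragenic peaks. No intervals were taken for these medians. Without the split by background, the ratio of median fold to the upstream flank was 1.01 (0.957 to 1.06), so no order to the upstream flank follows.

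Within the downstream flank, fold showed little relation to distance. The median fold was 3.98 at over 200 to 300 bp and 3.93 at over 900 to 1000 bp, and Spearman's rho between distance and fold was -0.01 across the 806 peaks. ChIP fragments and background both declined slightly with distance, with rho of -0.15 and -0.16. These peaks share 1 library and its depth, so the values are a description. At the inner bound of the rule, 2 peaks were 1 bp inside, at btf3 (fold 2.58) and aplp1 (4.48). Just outside it, at 200 bp, were peaks of txndc9 (3.22), hnrnph1 (3.28) and slc25a3 (4.38). At the outer bound, inpp4b at 1000 bp had a fold of 2.91, and itm2b at 1002 bp, just outside, had 4.93.

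**Figure D3:**
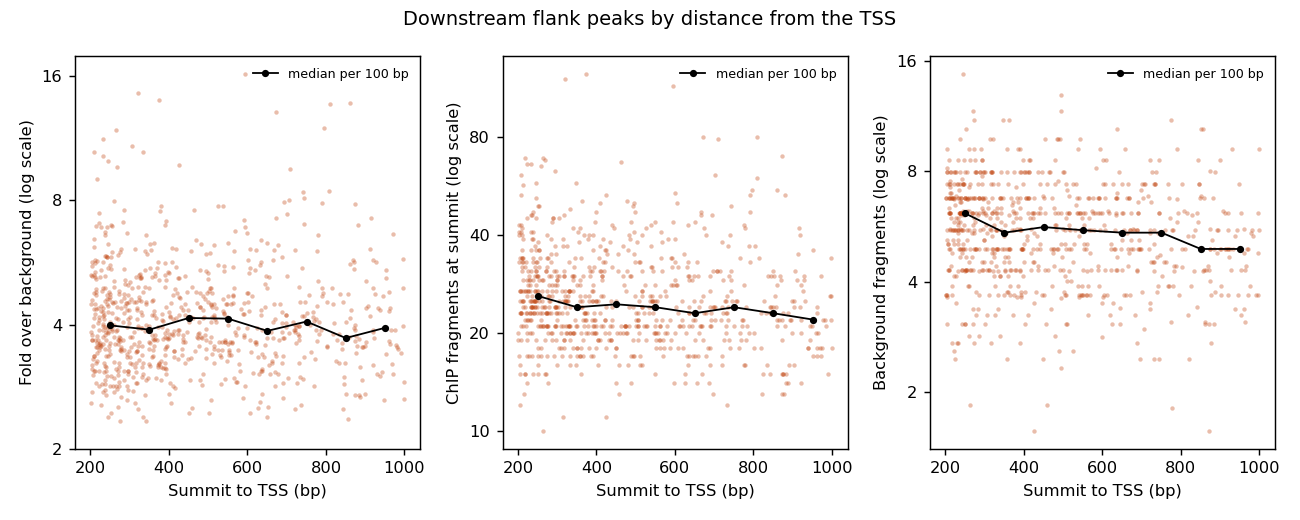
Fold over background, ChIP fragments and background fragments at the summit (vertical axes, log scale) of the 806 downstream flank peaks by distance from the TSS in bp (horizontal axes), 1 point per peak, with the median per 100 bp in black. Median fold stays between 3.71 and 4.15, while median fragments go from 26 nearest the TSS to 22 farthest from it.

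The strongest downstream flank peaks had more than 100 ChIP fragments. The highest fold was 16.2 (exact 95% Poisson interval 13.4 to 19.5), from 115 ChIP fragments over a background of 6.14. It lay 595 bp past the TSS of a gene provisionally named paox, for polyamine oxidase, on an unplaced scaffold (72222 to 72759). The gene fbxo21, which encodes an F-box protein of ubiquitin ligases, had 121 fragments over 7.37 and a fold of 14.6 (12.1 to 17.4) at 321 bp, on chromosome 1 (156259104 to 156259874). The gene svbp, whose product binds the tubulin-modifying vasohibins, had the most fragments of all 806 peaks, 125 over 7.99, and a fold of 14.0 (11.7 to 16.7) at 374 bp. These 3 peaks had overlapping intervals, so their order was within counting error.

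The next 3 peaks had folds above 13. A gene described as the acyl-CoA thioesterase THEM4 had a fold of 13.8 (10.4 to 17.8) at 861 bp. The purine synthesis gene adsl had 80 fragments over 4.92 and a fold of 13.7 (10.9 to 17) at 810 bp on chromosome 4 (111342454 to 111343437). The co-chaperone gene dnajb12 had 80 over 5.19 and a fold of 13.1 (10.4 to 16.3) at 672 bp on chromosome 7 (35245886 to 35246966). The intervals of all these peaks again overlapped with one another.

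Of the 12 named peaks with the highest folds, 11 were at genes that held no further peak, 11 were paired with no other gene, and 4 covered the TSS. Of all 806 downstream flank peaks, 277 were at a gene with a further peak, 682 were paired with 1 gene only and 99 covered the TSS. The exact intervals, 61.5 to 99.8% for 11 of 12 and 9.92 to 65.1% for 4 of 12, hold the matching shares over all 806. So no trait of the strongest peaks follows from these counts. The other 6 of the 12 ranged in fold from 10.5 to 11.9. They lay at ppp2r1a, the scaffold subunit of protein phosphatase 2A (796 bp), spopl, an adaptor of cullin ligases (264 bp), and the deubiquitinase gene otud3 (233 bp). The remaining members of that group were the mitochondrial electron transfer gene etfa (305 bp), the RNA helicase gene ddx5 (209 bp) and the mitochondrial ribosomal protein gene mrpl4 (333 bp). The ubiquitination factor gene ube4a was not among the 12 but had 79 fragments over 7.37, a fold of 9.55 (7.59 to 11.9) at 709 bp.

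Broad peaks were a small part of the downstream flank. A width of at least 800 bp was found in 46 of 806 peaks (5.71%, 4.21 to 7.54%), against 4.63% of all peaks. The widest, 1678 bp, lay at amd1, which encodes S-adenosylmethionine decarboxylase. It reached 439 bp upstream of the TSS, with the summit at 744 bp and a fold of 4.20 (2.86 to 5.97). A peak of 1595 bp lay at the glutamate receptor gene gria2, reaching 684 bp upstream, with its summit at 238 bp and a fold of 4.90 (3.44 to 6.79). The protocadherin genes pcdh10 and pcdh1 had peaks of 1316 and 1221 bp, with folds of 4.71 and 5.85.

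Among genes of TH signalling, rxrb had the highest fold in the downstream flank. Of 7 listed genes of TH receptors, transport and metabolism that held a peak, 3 had at least 1 here. The gene rxrb, an RXR that partners TRs, had 27 ChIP fragments over a background of 2.46 at 744 bp on chromosome 8 (51201046 to 51201278). Its fold was 8.10 (5.44 to 11.7), the peak was also paired with 1 other gene, and it was rank 21 of 806. The genes slc3a2 and slc7a5 encode the heavy and light chains of an amino acid transporter that also carries TH. Their downstream flank peaks had folds of 4.34 (2.97 to 6.13) at 634 bp and 3.06 (1.91 to 4.70) at 671 bp, from 30 and 19 fragments. The gene slc7a5 also held a core promoter peak 185 bp upstream of the TSS, with a fold of 4.44 (2.88 to 6.57).

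Of 11 TH response genes with a peak, 3 had a downstream flank peak. The arginine methyltransferase gene prmt1, a coactivator of nuclear receptors, had 40 fragments over 5.83 and a fold of 6.0 (4.33 to 8.12). This peak was the only one at prmt1, and its interval began 78 bp past the TSS on chromosome 7 (103135826 to 103136385). The transcription factor gene sox4 had a pair of downstream flank peaks on chromosome 6. The first, at 247 bp, had 33 fragments over 6.09 and a fold of 4.79 (3.34 to 6.67). The second, at 746 bp, had 25 over 4.72 and a fold of 4.55 (3.0 to 6.63), so the pair did not differ beyond counting error. The growth arrest gene gadd45g had a fold of 4.06 (2.83 to 5.65) at 284 bp, from 33 fragments over 7.37. The counts of 3 of 11 and 3 of 7 are small, and their intervals (6.02 to 61.0% and 9.90 to 81.6%) held the 15.7% found over all named genes with a peak.

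Histone modifying enzymes with a downstream flank peak included writers and erasers of H3K4 and H3K27 methylation. Of 25 with a peak, 8 had a downstream flank peak (32.0%, 14.9 to 53.5%), against 771 of 4900 named genes with a peak (15.7%, 14.7 to 16.8%). The H3K4 methyltransferase gene setd1a had 61 fragments over 7.37 and a fold of 7.4 (5.69 to 9.48) at 702 bp. This gene also held a core promoter peak, and the flank peak was paired with 2 other genes. The acetyltransferase gene kat2a had a fold of 7.27 (5.29 to 9.77) at 916 bp, and the H3K4 methyltransferase gene kmt2c had 5.67 (4.14 to 7.59) at 634 bp. The gene ezh2, the catalytic subunit of Polycomb complex PRC2, had a fold of 5.42 (4.06 to 7.09) at 478 bp, from 51 fragments over 8.60. This ezh2 peak was also paired with 2 other genes.

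The other 4 genes of that list were all histone demethylases. The H3K4 demethylase gene kdm5c had a fold of 5.26 (3.75 to 7.20) at 324 bp, and the H3K27 demethylase gene kdm6a had 4.4 (2.90 to 6.41) at 932 bp. The H3K9 demethylase gene kdm3b had 2.87 (1.86 to 4.24) at 533 bp. The H3K4 demethylase gene kdm5b had a pair of weak peaks at 261 and 722 bp, with folds of 2.74 and 2.50, over high backgrounds of 9.22 and 8.60. Of 20 nuclear receptor coregulator genes with a peak, 2 had one in the downstream flank (interval 1.23 to 31.7%, which holds the 15.7% of all named genes with a peak). These were prmt1 and the acetyltransferase gene kat2b (3.92, 2.63 to 5.64, at 332 bp). A core promoter peak was held by 7 of the 20, against 1714 of the 4900 named genes with a peak. No lean of coregulator genes to the core promoter follows from this count.

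The series concerns DNA methylation, and 4 of 10 genes of DNA methylation and demethylation with a peak had one in the downstream flank (interval of the share 12.2 to 73.8%, which holds the 15.7% of all named genes with a peak). The gene mat2a makes the methyl donor S-adenosylmethionine. It held 2 downstream flank peaks on chromosome 3, one at 254 bp with 49 fragments over 6.22 and a fold of 6.92 (5.16 to 9.11), and one at 664 bp with 21 over 4.41 and a fold of 4.07 (2.59 to 6.12). A further peak of mat2a lay at 1244 bp (3.4, 2.06 to 5.32), and no peak covered its TSS. The gene mbd3, a subunit of the NuRD repressor complex, had a fold of 5.06 (3.45 to 7.20) at 300 bp. The methylcytosine dioxygenase gene tet2 had 51 fragments over a high background of 11.1, and a fold of 4.31 (3.23 to 5.64) at 363 bp. The fourth gene was gadd45g, already described.

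Several genes held more than 1 peak in the downstream flank. There were 23 genes with 2 such peaks (2.94% of 783, 1.87 to 4.38%). The highest folds after mat2a were at mta1, another NuRD subunit, with 5.52 at 419 bp and 3.97 at 997 bp. The GABA-B receptor gene gabbr2 had folds of 3.98 at 231 bp and 5.47 at 738 bp, and a further peak at 1519 bp with 5.49. The Kruppel-like factor gene klf6 had 5.23 (3.86 to 6.94) at 317 bp and 3.74 (2.53 to 5.34) at 859 bp. A klf6 peak on the other side of the TSS, 229 bp upstream, had a fold of 2.68 (1.87 to 3.74), and its interval did not overlap that of the first downstream peak. The homeobox gene dlx5 had 5.21 and 4.04, and the calcium pump gene atp2b3 had 4.88 and 2.64. Within each of these 6 genes the intervals of the 2 downstream flank peaks overlapped.

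**Figure D4:**
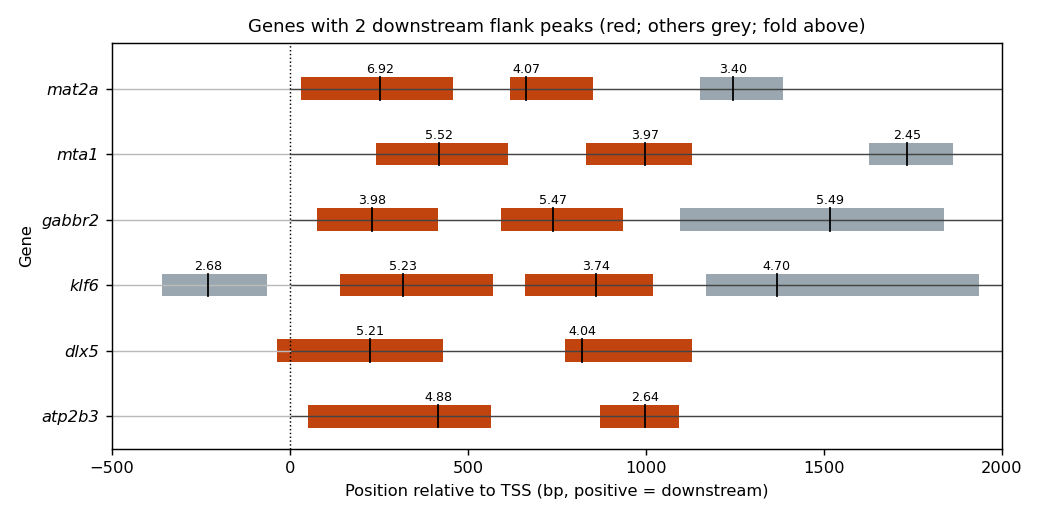
TR ChIP peaks (bars, black line at the summit, fold above) at the 6 genes with 2 downstream flank peaks and the highest folds, by position relative to the TSS in bp (horizontal axis, dotted line at the TSS), with downstream flank peaks in red and other peaks in grey. At mat2a and at klf6 the peak nearest to the TSS on the downstream side had the highest fold, 6.92 and 5.23. At gabbr2 the peak at 738 bp (5.47) and the one at 1519 bp, outside the downstream flank (5.49), were nearly equal.

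Downstream flank peaks lay at genes with a further peak more often than core promoter peaks did. A further peak was present at the gene of 277 of 806 downstream flank peaks (34.4%, 31.1 to 37.8%), against 327 of 1736 core promoter peaks (18.8%, 17 to 20.8%) and 157 of 411 upstream flank peaks (38.2%, 33.5 to 43.1%). These shares count peaks, and a second downstream flank peak counts as a further peak. Counted by gene, 529 of 783 (67.6%, 64.2 to 70.8%) held the downstream flank peak only. This compares with 1409 of 1735 genes (81.2%, 79.3 to 83.0%) that held the core promoter peak only. Over all genes with a peak, 4341 of 5285 (82.1%, 81.1 to 83.2%) held 1 peak only. Of the 783 genes, 62 also held a core promoter peak, 47 an upstream flank peak, 80 an intragenic peak at 1 to 10 kb and 68 one beyond 10 kb. Gene length also differed between the classes, but in another order than the share with a further peak. The median gene length was 28.4 kb for downstream flank peaks, against 18.8 kb for core promoter peaks and 22.4 kb for upstream flank peaks. The part of gene length in the further peaks was not tested.

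The share of genes with a downstream flank peak rose with gene length. Among genes with a peak it was 129 of 1322 (9.76%, 8.21 to 11.5%) in the shortest of 4 equal groups of genes, up to 8.12 kb. With rising length it was 163 of 1321 (12.3%), 232 of 1321 (17.6%) and 259 of 1321 (19.6%, 17.5 to 21.9%) in the longest, over 50.4 kb. The core promoter share had no such order, with 28.7%, 39.1%, 36.9% and 26.6% across the same groups. Median folds of the downstream flank peaks were 4.19 and 4.33 in the 2 shorter groups and 4.06 and 3.72 in the 2 longer ones.

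Where a TSS had a flank peak on either side, the downstream one was not regularly the higher. Beside a core promoter peak, which could itself lie on either side of the TSS, the downstream flank peak was the lower in most pairs. In 52 pairs of a downstream and an upstream flank peak at the same TSS (47 genes), the downstream peak had the higher fold in 29 and the upstream peak in 23. The intervals were apart in 3 of these pairs, 1 with the downstream and 2 with the upstream peak higher. In 63 pairs with a core promoter peak (62 genes), the downstream flank peak was higher in 21 and the core peak in 42, and the intervals were apart in 2, 1 in each direction. At yy1, a zinc finger transcription factor gene, the peak at 790 bp downstream had a fold of 7.90 (5.96 to 10.3), against 2.45 (1.64 to 3.52) at 192 bp upstream. At brd2, which encodes a bromodomain protein, the peak at 636 bp downstream had a fold of 3.09 (2.01 to 4.58), against 7.29 (5.70 to 9.20) for the core peak at 117 bp downstream.

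Genes of RNA processing and protein synthesis also had downstream flank peaks. The intervals for splicing and cytosolic ribosomal protein genes (19.7 to 53.5% and 5.74 to 23.9%) overlapped, so no order between them follows. Of 34 splicing factor and hnRNP genes with a peak, 12 had one here (35.3%, 19.7 to 53.5%) and 18 a core promoter peak. The examples with the highest folds were hnrnpa2b1 (6.26 at 353 bp), tra2a (6.14 at 408 bp), srsf6 (6.08 at 314 bp) and hnrnpa3 (4.77 at 479 bp). The tra2a peak was also paired with 2 other genes. The median fold over the 12 was 3.5, below the 3.96 of all downstream flank peaks. The splicing list was the only fixed list whose interval lay wholly above the 15.7% of all named genes with a peak. It was 1 of 16 fixed lists, and the intervals were not adjusted for their number. A core promoter peak was held by 18 of the 34, against 1714 of the 4900 named genes with a peak. Whether the higher share was particular to the downstream flank was not tested. With peaks at or above the median −log10 adjusted p-value 5 genes remained, and 3 among the strongest 1000 peaks. The other alternatives gave 10 to 15.

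Cytosolic ribosomal protein genes had more core promoter than downstream flank peaks, as did all named genes with a peak. Of 62 with a peak, 31 had a core promoter peak, 8 a downstream flank peak (12.9%, 5.74 to 23.9%) and 0 an upstream flank peak. Over all 4900 named genes with a peak these counts were 1714, 771 and 374. The interval of the downstream flank share holds the 15.7% of all named genes with a peak. The downstream examples were rps2 (7.09 at 284 bp), rpl23a (6.72 at 238 bp), rps3a (5.82 at 243 bp) and rps29 (4.56 at 328 bp). The peaks of rps2, rpl23a and rps3a were each paired with 4 other genes and that of rps29 with 1, so their assignment was shared. The rpl23a gene model was 107 kb long, with 2 TSSs within 1 kb of the summit. Chaperone genes had 3 of 16 in the downstream flank (18.8%, 4.05 to 45.6%), led by hspa8 (5.73 at 666 bp, also paired with 3 other genes). Cell cycle and replication genes had 2 of 11 (18.2%, 2.28 to 51.8%), pcna (3.52) and rbl2 (2.96). Both intervals hold the 15.7% of all named genes with a peak.

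Among marker lists of cell types, those of neurons and of neural progenitors held downstream flank peaks. Of 43 neuronal and synaptic genes with a peak, 12 had one in the downstream flank (27.9%, 15.3 to 43.7%) and 13 at the core promoter. Those with the highest folds were the glutamate receptor genes gria1 (5.11 at 903 bp) and gria2, the adhesion gene ncam1 (4.50 at 472 bp) and the synaptotagmin gene syt4 (4.23 at 332 bp). Transmitter transporters of opposite kinds were both present, the vesicular glutamate transporter gene slc17a7 (4.05 at 450 bp) and the vesicular GABA transporter gene slc32a1 (3.58 at 963 bp). Of 15 neural progenitor genes with a peak, 5 had a downstream flank peak (33.3%, 11.8 to 61.6%). They were led by id4 (5.94 at 495 bp), sox1 (5.33 at 364 bp), jag1 (4.56 at 278 bp) and neurod1 (3.89 at 721 bp). The intervals of the neuronal and the progenitor share both hold the 15.7% of all named genes with a peak. Markers of oligodendrocytes, microglia, endothelium and blood, muscle, and liver and gut had 0 downstream flank peaks. Those 5 lists held only 0, 0, 1, 2 and 0 genes with any peak, so their part in the downstream flank could not be judged.

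**Figure D5:**
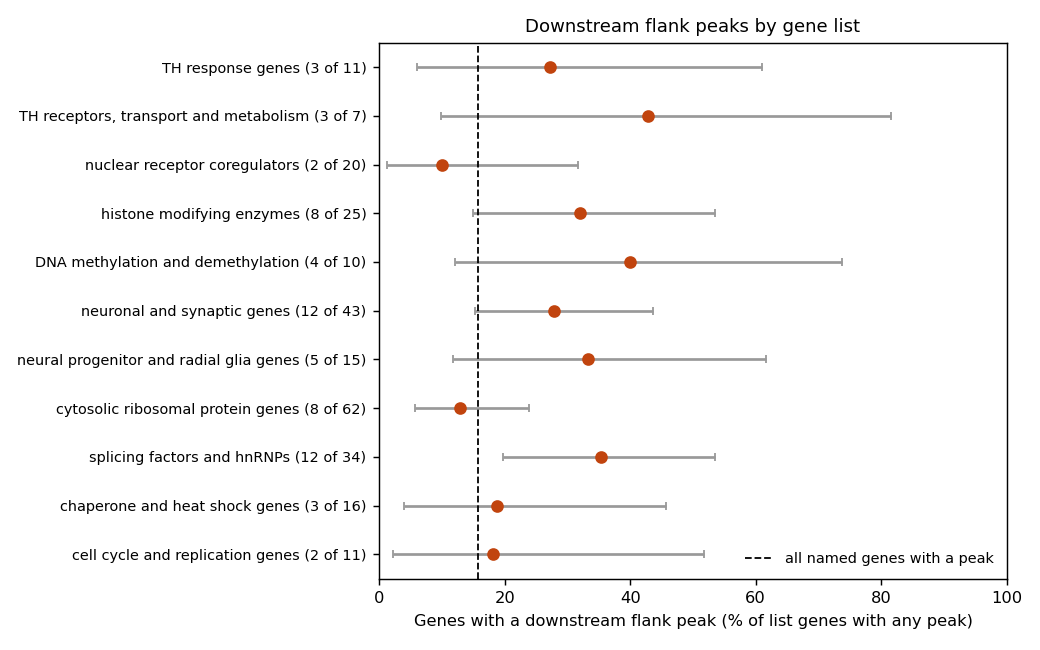
Genes with a downstream flank peak in percent of the genes of each list that held any peak (horizontal axis, points with exact 95% binomial intervals), with counts beside each list name and the 15.7% of all named genes with a peak as a dashed line. Only the interval of splicing factors and hnRNPs, 12 of 34 genes, lies wholly above the line. The intervals are not adjusted for the number of lists.

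Downstream flank peaks lay on all 10 chromosomes. They made up as few as 9.13% of peaks (5.93 to 13.3%) for chromosome 10 and as many as 15.4% (12.8 to 18.3%) for chromosome 3. Among peaks of unplaced scaffolds they were 47 of 540 peaks (8.70%, 6.47 to 11.4%). The gene of the nearest TSS was protein coding in 759 of 771 named genes, and 99.1% of summits (799 of 806) lay inside that gene. The other 7 summits lay past the end of genes shorter than the distance to the summit, of which 6 were microRNA genes.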

How the data were processed

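One deposited list of TR ChIP peaks was used. MACS2 2.2.6 (a peak caller) and BWA 0.7.17 (an aligner) are among the tools named per the submitters' processing notes. Neither the build nor the cutoff for calling a peak is given in the sources used here. Coordinates are as deposited. The deposited enrichment is a linear fold ratio. Deposited p-values and adjusted p-values are given as −log10, with a lowest adjusted value of 1.31, and the deposited score is 10 times the latter, rounded down. Total depths are not known.

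Peaks were made unique by name (6302 from 7848 rows). The summit was the deposited start plus offset, and the TSS was the gene start or, on the minus strand, the gene end. ChIP fragments and background were solved from fold = (fragments + 1) / (background + 1) and the upper Poisson tail, and the −log10 p-value was met within 2.48e-05 in every peak. This step and the position classes were run on simulated data, which checks the code only. The simulated fragments came from the same formula, and each simulated peak had 1 TSS within 1000 bp, so the one-strand condition was not tried. Gene names came from the NCBI number in the deposited description (reference table of assembly UCB_Xtro_10.0, names only) or from Xenbase, RefSeq, miRBase, UniProt or RFAM descriptions. Of 158 genes with a downstream flank peak and an NCBI number, 90 carried another deposited name. Of 5285 genes, 336 stayed unnamed. A share over named genes counts each name once. Poisson intervals cover counting error of ChIP fragments and leave out that of the background, and binomial intervals cover counting error of shares. The interval of a ratio of medians was formed from bounds of the class medians. It covers spread among peaks of 1 library, taken as independent. All these intervals apply to peaks selected for being high.

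The rule for the peaks and the 16 gene lists were chosen with earlier results of these data known, so no list is independent support. Named genes were the 12 highest folds, the 6 highest fragment counts, the 4 widest peaks, up to 6 genes with 2 peaks, all genes of the TH, coregulator, histone and DNA methylation lists, the 4 highest of each other list, and the peaks at the bounds. The genes yy1, brd2, slc17a7 and slc32a1, and those of the gene families in the closing section, were named after their values were seen. A planned search for response elements was not run, since no sequence was used here. Alternatives were stronger peaks, the peak centre, other bounds, longer genes, peaks off the TSS and no one-strand condition. Python 3.11.15, numpy 2.4.6, scipy 1.17.1, pandas 2.3.3 and matplotlib 3.10.9 were used.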

Additional observations from a re-analysis of the deposited data

How the results depend on the processing

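With 1 ChIP library, no replicate could be left out. No paired analysis was possible because the 2 groups hold 1 library each. The fold ratios to core promoter and upstream flank peaks stayed within their intervals, which cover spread among peaks of 1 library, under all 7 alternatives. The second ratio fell below 1 in 4 of them (0.975 to 0.995), so no order to the upstream flank follows. With only TSSs of genes of 1000 bp or more, all 12 results stayed within their intervals or, for counts, within 1.5 times, as they did without the one-strand condition.

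With peaks at or above the median −log10 adjusted p-value there were 401 downstream flank peaks and 35 listed genes, with a median of 31 fragments, fold 4.77 and distance 391 bp. The downstream to upstream ratio was 1.73 and the width ratio to core peaks 1.06. A further peak was present in 16% and the TSS was covered in 18.7%. Among the strongest 1000 peaks these values were 123, 18, 42, 6.30, 391 bp, 1.73, 1.09, 4.88% and 25.2%. Fewer and stronger peaks enter both by construction. With an outer bound of 500 bp, which is narrower by construction, there were 480 peaks (7.62% of all) and 38 listed genes, the median distance was 300 bp, the downstream to upstream ratio 1.73, a further peak 29.2% and the TSS covered 19.0%. With the peak centre the ratio was 2.29, the share of all peaks 14.1% and the TSS covered 15.1%, and the cause was not tested. Without peaks that cover the TSS the ratio was 2.24, the median distance 459 bp, the width ratio 0.898 and the share of all peaks 11.2%. Downstream flank peaks outnumbered upstream ones in every setting, while their width ratio to core peaks passed 1 among stronger peaks. Depth limits single peaks: 155 of 806 (19.2%, 16.6 to 22.1%) rested on fewer than 20 ChIP fragments. Over all peaks this held for 1623 of 6302 (25.8%, 24.7 to 26.9%).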

Other observations

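Homeobox and sox genes, which encode developmental transcription factors, had peaks in the downstream flank in most of the few cases where they held any. These families were formed from gene symbols after the peak list had been seen, so the counts are a description. Of 11 homeobox genes with a peak, taken from symbols such as hox, dlx, lhx, nkx and pou, 8 had a downstream flank peak, 2 a core promoter peak and 2 an upstream flank peak. They were pou2f1 (fold 5.58), dlx5, pou3f3 (4.30), dlx2 (3.76), pou3f1 (3.62), pou3f4 (3.52), lhx5 (3.27) and lhx1 (3.22). For pou3f3, pou3f1 and pou3f4, factors of neural development, the summits lay at 766, 841 and 895 bp in genes of 1.35, 2.51 and 2.70 kb. Of 5 sox genes with a peak, 3 had at least 1 in the downstream flank, namely sox1, sox4 and sox5 (4.20). RNA helicases of the ddx and dhx families had 9 of 29 and translation initiation factors had 9 of 32. Mitochondrial ribosomal proteins had 6 of 41, proteasome subunits 3 of 25 and potassium channels 1 of 21. For reference, the share was 15.7% over all named genes with a peak. The exact interval of the homeobox share (39.0 to 94.0%) lay above it. This family was 1 of 14 formed after the data were seen, so that interval does not keep its stated coverage and sets no family apart. The intervals of all the other families of this paragraph hold the 15.7%, that of sox genes (14.7 to 94.7%) included, so no order between those families follows. Zinc finger genes had 16 of 68, solute carriers 11 of 65, kinesins and tubulins 4 of 18, ubiquitin enzymes of the ube family 4 of 18, mediator subunits 2 of 18 and RNA polymerase subunits 1 of 15.

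Of 35 microRNA entries with a peak, 6 had a downstream flank peak by the rule (17.1%, 6.56 to 33.6%). This interval holds the 15.7% of all named genes with a peak. Of the 34 named entries, 5 had a downstream flank peak, 8 an upstream flank peak and 3 a core promoter peak. Among the 6 entries, the highest downstream flank fold was 5.76 (3.84 to 8.34), with the summit at 996 bp. It was at an entry described as microRNA 124-1, which the naming rule had left without a name. The others were mir-9a-1 (5.59), mir-125b-2 (4.93), let-7a (4.75), mir-9a-2 (3.79) and mir-9-3 (3.41). The deposited start of such an entry is that of a short hairpin of 0.068 to 0.089 kb, so these summits lay past the end of the entry.

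The peaks with the highest folds lay on unplaced scaffolds more often than the rest. Of the 13 downstream flank peaks with a fold of at least 10, 5 were on such scaffolds (38.5%, 13.9 to 68.4%), against 42 of the 793 others (5.30%, 3.84 to 7.09%). Over all peaks the values were 26 of 115 (22.6%) and 514 of 6187 (8.31%). The part of scaffold assembly in these folds was not tested.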
